A study of Mus musculus with 8 samples.

Results

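The genes described here are 36 genes of mitosis, the spindle and cytokinesis, given as a list of symbols. Of these, 34 were matched by symbol to a probe set, 1 each, out of 19505 genes with a named probe set; Ccnb1 and Foxm1 were not matched and are not analysed here. Expression was measured in mesenchymal stromal cells, fibroblast-like progenitors grown in culture, from the inguinal fat pad of male FVB mice aged 12 months. All cells had been infected with the lentiviral vector pLKO.1: 4 arrays carried a short hairpin RNA against Irf7 (shIRF7), 2 a scrambled hairpin (scramble) and 2 no hairpin (empty vector). The labels do not say how many animals, cultures or infections lie behind the arrays, whether animals were pooled, how many hairpin sequences were used, or what a replicate number stands for, so the p-values measure no more than how far these arrays differ, and part of that spread may be technical. Values are log2 probe set levels and each array has 1 value per gene.

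Mitosis runs in part on proteins, its cyclins among them, that are made anew in each cell cycle and destroyed at its end. Cyclin-dependent kinase 1 with its cyclins starts it, kinetochore proteins tie chromosomes to the spindle, a checkpoint holds the anaphase-promoting complex until all are attached, and midzone proteins then guide the cut between the daughter cells. Most of their transcripts are low in resting stromal cells and peak together in late cell cycle. This runs largely through promoters that carry CCAAT boxes and a cell cycle homology region (CHR). The CHR is bound by complexes of the MuvB core with B-Myb, Foxm1 or the pocket proteins.

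The promoters of some members are shown first as background. Whether their motifs have a part in the levels on the arrays was not tested. RefSeq promoters (250 bases before and 50 after the start, build GRCm38.p6) were at hand for 29 of the 36 genes, Ccnb1 among them. The CHR, searched as TTTGAA on both strands, was in 21 of them (72.4%, against 20.2% of 27025 genes with a promoter), and the variant TTTAAA in 9 (31%, against 14.9%). The CCAAT box, searched as CCAAT on both strands, was in 21 (72.4%, against 41.1%), and 15 held at least 2 of them (51.7%, against 13.3%). Both the CHR and a CCAAT box were in 18 promoters (62.1%, against 7.97% of all). Of 29 S phase genes with a promoter, whose levels are given further below, 5 held the CHR (17.2%) and 19 a CCAAT box (65.5%). No match of one of these motifs overlapped a match of another in the members. Prc1 and Ect2 have 2 overlapping promoter entries each, of which the first listed was used for positions. Of the 27 CHR matches 20 began within 50 bases of the start, and of the 51 CCAAT matches 34 began between positions -110 and -1. Mad2l1, Nuf2, Nusap1 and Mybl2 held none of the 3 motifs in this window. The last 150 bases before the start follow for 6 members, read 5′ to 3′ along the gene, with CHR and CCAAT matches in capitals (ATTGG and TTCAAA are matches on the opposite strand). Cdc20, Cdk1, Ube2c and Top2a hold both motifs there, while Ccnb2 and Hmmr hold 3 and 4 CCAAT boxes and no CHR in the stretch shown. Both do hold the CHR elsewhere in the window searched, Ccnb2 at positions -167 and 5 and Hmmr at position 9.
Cdc20 (chr4:118437344-118437493, minus strand): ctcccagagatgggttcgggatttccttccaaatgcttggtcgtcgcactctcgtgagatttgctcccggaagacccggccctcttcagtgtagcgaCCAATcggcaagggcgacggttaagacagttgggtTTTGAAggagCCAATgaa
Cdk1 (chr10:69352913-69353062, minus strand): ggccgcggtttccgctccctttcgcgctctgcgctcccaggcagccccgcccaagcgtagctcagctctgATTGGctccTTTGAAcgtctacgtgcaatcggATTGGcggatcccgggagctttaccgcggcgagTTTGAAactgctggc
Ube2c (chr2:164769779-164769928, plus strand): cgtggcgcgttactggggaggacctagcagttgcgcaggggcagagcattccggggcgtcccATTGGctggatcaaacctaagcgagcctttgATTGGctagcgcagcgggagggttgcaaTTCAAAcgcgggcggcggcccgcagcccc
Top2a (chr11:99024190-99024339, minus strand): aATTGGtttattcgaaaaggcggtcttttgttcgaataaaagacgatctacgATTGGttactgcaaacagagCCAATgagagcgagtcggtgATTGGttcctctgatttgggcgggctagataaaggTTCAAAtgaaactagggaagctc
Ccnb2 (chr9:70421555-70421704, minus strand): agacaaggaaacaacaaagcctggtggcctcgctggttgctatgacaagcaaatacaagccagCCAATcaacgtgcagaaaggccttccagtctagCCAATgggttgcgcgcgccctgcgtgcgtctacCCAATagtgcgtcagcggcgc
Hmmr (chr11:40733438-40733587, minus strand): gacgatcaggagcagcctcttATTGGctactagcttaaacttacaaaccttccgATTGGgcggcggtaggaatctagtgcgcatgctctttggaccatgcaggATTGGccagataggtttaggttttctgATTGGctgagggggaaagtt

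**Figure D1:**
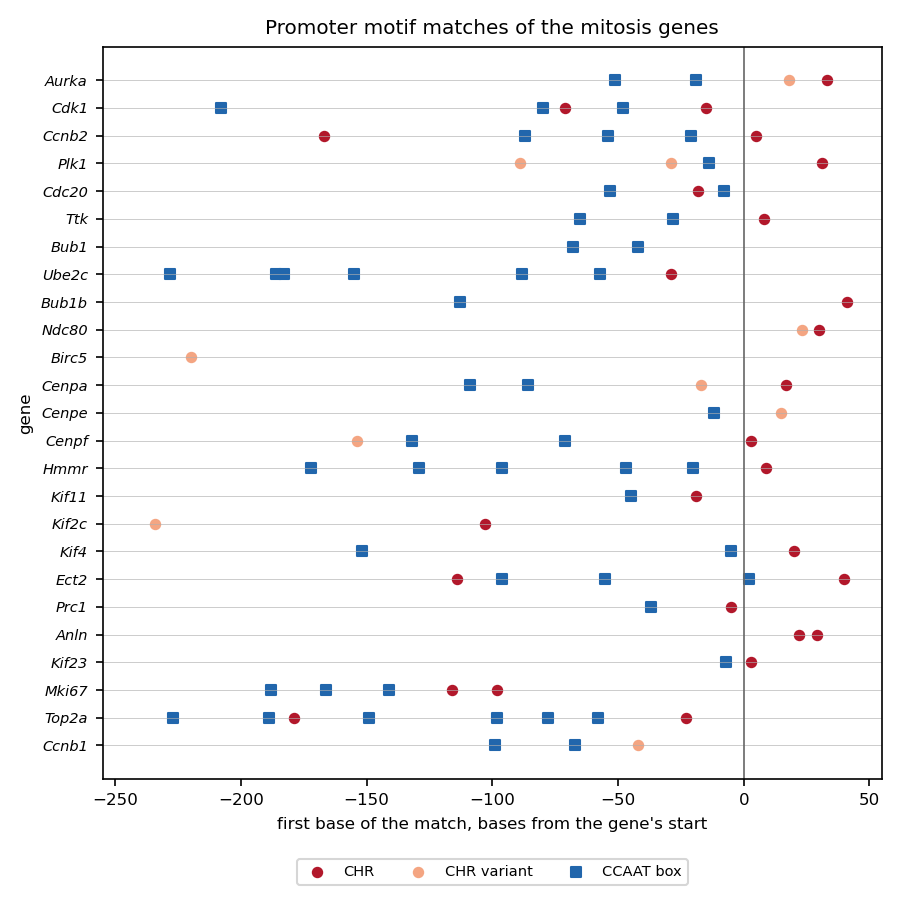
Matches of the CHR (TTTGAA), its variant (TTTAAA) and the CCAAT box in the promoters of the 25 genes that hold at least 1 of them; the x axis is the distance of the match's first base from the gene's start in bases. CCAAT boxes lie mostly within 110 bases before the start and CHR matches mostly within 50 bases of it.

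Across the 8 arrays both the highest and the lowest levels of mitotic gene expression were in controls. The median log2 value over the 34 members was 11.85, 11.51, 11.44 and 11.95 in shIRF7 replicates 1 to 4. It was 12.72 and 12.69 in scramble and empty vector replicate 2, and 10.85 and 8.47 in scramble and empty vector replicate 1. Both control replicates 2 were thus highest, empty vector replicate 1 was lowest, and all 4 shIRF7 arrays lay between them. Scramble replicate 1 lay between empty vector replicate 1 and the shIRF7 arrays. The median over all 19505 genes stayed between 5.36 and 5.46 on these arrays. In bulk RNA, fewer dividing cells and less mitotic RNA per cell cannot be told apart.

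The arrays also differed in other ways. Medians of the negative control probe sets were 4.18, 4.56, 4.54 and 4.33 in shIRF7 replicates 1 to 4, 4.56 and 4.55 in scramble and empty vector replicate 2, and 4.26 and 4.21 in scramble and empty vector replicate 1. Among the controls, the arrays with high mitotic transcripts had the higher background. In shIRF7, replicates 2 and 3 had a higher background and a lower median of the members than replicates 1 and 4. Whether background has a part in the gap was not tested. A detection limit was set at the 95th percentile of the negative control probe sets of the same array. Of 10 measured stromal markers 8 lay above this limit on all arrays, Thy1 on 2 arrays and Nt5e on 0. The median stromal marker lay at 14.4 to 14.7 in shIRF7, 14.8 to 14.9 in control replicates 2 and 14.8 to 15.1 in control replicates 1. None of 7 leukocyte, 5 endothelial or 6 epithelial and mesothelial markers lay above the limit on any array, while 1 of 5 adipocyte markers (Fabp4, on 4 arrays) and 1 of 4 skeletal muscle markers (Acta1, on 3) did on some. The targeted gene, Irf7, measured 4.42, 5.66, 6.47 and 6.79 in shIRF7 replicates 1 to 4, against 9.76 and 9.61 in scramble and empty vector replicate 2 and 9.56 and 9.55 in scramble and empty vector replicate 1. All 4 shIRF7 values lay below the detection limit and all 4 control values above it, so the difference has only a bound: with the shIRF7 values at the limit, Irf7 was at least 2.34-fold lower in shIRF7. In limma on the values as deposited the adjusted p was 0.0692, and it was 0.0299 with both controls as 1 group and 0.0254 without shIRF7 replicate 1; over all alternatives it ran from 0.0254 to 0.316.

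**Figure D2:**
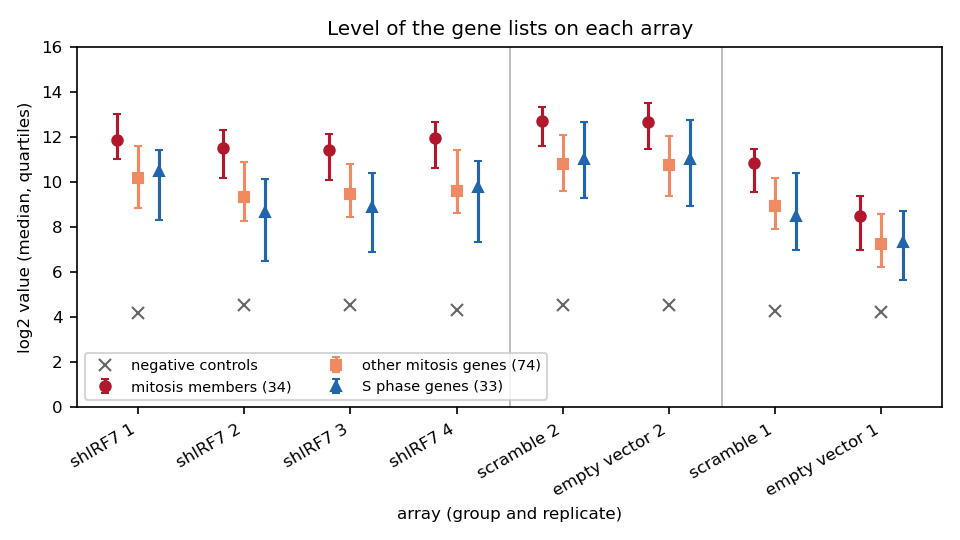
Median and quartiles (bars) of log2 values for the 34 mitosis genes, 74 other mitosis genes and 33 S phase genes on each array, with the median of the negative control probe sets as crosses. The 4 shIRF7 arrays sit between control replicates 2 (scramble and empty vector) and empty vector replicate 1.

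All 34 members were higher in control replicates 2 than in control replicates 1, in both vectors. The median difference was 3.06 on the log2 scale (8.35-fold), against -0.04 over all genes. In 21 members all 4 control values lay above the detection limit, and their gaps ran from 2.18 for Top2a to 3.97 for Ccna2, with a median of 2.80. Aurka, Aurkb, Bub1, Ttk, Cdc20, Ndc80, Hmmr, Anln and Prc1 lay below the limit in empty vector replicate 1, and Cdc25c, Incenp, Cenpf and Mybl2 in both control replicates 1, so their measured gaps rest on values not above background. With such values raised to the limit the median gap of all 34 was 2.75. Both control replicates 2 lay above both control replicates 1 in 34 of 34 members (26.6% of all genes). The difference was at least 1 in both vectors in 33 members (4.76% of all genes) and at least 2 in 18 (0.749%), or in 32 and 15 with the dim values at the limit. Within the empty vector pair the median was 4.02 (2.79 to 5.59) and within the scramble pair 2.03 (0.61 to 3.58). The gap was wider in the empty vector pair for 34 of 34 members, against 21% of all genes (33 with the dim values at the limit, Mybl2 being the other), and empty vector replicate 1 was the lowest array for every member (18.3% of all genes). Scramble replicate 1 came next in 26 members (6.53% of all genes). The replicate 2 arrays of both vectors were close to each other, with a scramble-minus-empty median of 0.04 (-0.32 to 0.38), whereas in replicate 1 scramble exceeded empty vector by 2.16 (0.71 to 3.10). In limma, fitted on the 4 control arrays with the vector as a covariate and adjusted over all genes, 34 of 34 members passed the threshold of adjusted p under 0.05 as higher in replicate 2, where 10.3% of all genes passed as higher and 8.34% as lower. Their adjusted p ran from 5.14e-07 to 0.00449. That fit has 1 residual degree of freedom per gene and borrows 13.8 from the other genes. The shares of all genes take in many dim genes, as only 31.6% to 36.8% of genes lay above the detection limit on an array. In either direction 18.7% of all 19505 genes passed, against 35.3% of the 7288 genes kept by a filter on dim genes. With trend and robust estimation of the variances 15 of the 34 passed, where 18.1% of all genes passed in either direction. Without any borrowing 0 members and 0 of all genes passed, and only Mybl2 had an unadjusted p under 0.05, as did 8.66% of all genes. An exact permutation of 2 control arrays against 2 cannot give a p below 0.333. With replicates 1 and 2 of all 3 groups 0 passed in limma, 2 (Ccnb2 and Cenpa) had an unadjusted p under 0.05, as did 6.37% of all genes, and the median gap was 1.78.

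**Figure D3:**
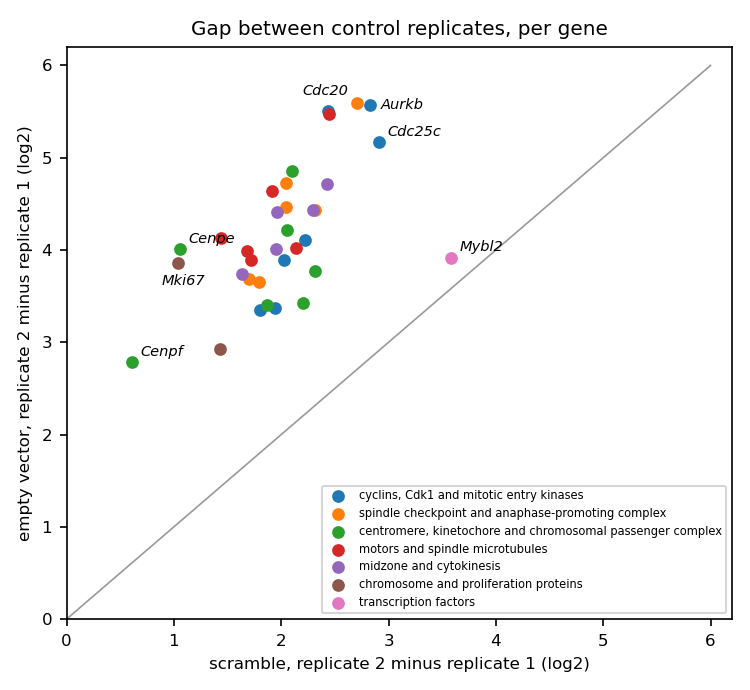
Each point is 1 of the 34 genes; the x axis is its log2 difference between scramble replicates 2 and 1 and the y axis the same difference in empty vector, with a line of equality and colours for the role. All points lie above the line; the values of Mybl2 (3.58 and 3.92) and Cenpf (0.61 and 2.79) rest on control replicate 1 values below the detection limit, as does that of Cdc20 in empty vector (5.59).

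Against the mean of both controls, shIRF7 gave no call for any member. In limma over all 8 arrays 0 of 34 members passed in either direction (0% of all genes higher and 0.0308% lower), and 0 had an unadjusted p under 0.05 (8.12% of all genes). The smallest adjusted p was 0.69, for Ccnb2. The median difference was 0.47 (1.39-fold), against 0.0017 over all genes, with 32 members above 0 and Kif2c and Mybl2 below. The SD over the 4 controls had a median of 1.97 over members, against 0.37 over the 4 shIRF7 arrays, and the median SE of the difference was 0.84. The sign of the median difference rested on a single array: it was -0.52 without empty vector replicate 1, 1.60 without empty vector replicate 2, 0.04 without scramble replicate 1 and 1.00 without scramble replicate 2. Within replicate 1 the shIRF7 array lay above both controls for 34 of 34 members (35.8% of all genes), by a median of 2.36 (1.13 to 3.57) over their mean. Within replicate 2 it lay below both controls for 33 of 34 members (38.4% of all genes), with a median difference of -1.33 (-3.56 to 0.46). In 0 of 34 members did all shIRF7 arrays lie above every control, or all below (2.58% and 2.8% of all genes).

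Set against each pair of controls, the position of shIRF7 was more uniform. In 32 of 34 members all 4 shIRF7 values lay below both control replicates 2 (15.7% of all genes), with a median difference of -1.01 for the shIRF7 mean, and in 26 they lay above both control replicates 1 (12.1% of all genes), by a median of 2.13. In 25 members all 4 lay inside the gap (3.32% of all genes). Only genes with both control replicates 2 above both control replicates 1 can meet this, which all 34 members and 26.6% of all genes were. Of those 5197 genes 648 met it. Among the members the exceptions at the upper end were Ccnb2 and Mybl2. Those at the lower end were Plk1, Kif4, Cenpe, Cenpf, Top2a, Mki67, Anln and Mybl2, of which scramble replicate 1 exceeded at least 1 shIRF7 array. On a scale where 0 is the mean of control replicates 1 and 1 that of control replicates 2, the median place of the members was 0.81, 0.54, 0.58 and 0.72 in shIRF7 replicates 1 to 4. Values below the detection limit entered this scale as measured. All 34 members lay above 0.5 in shIRF7 replicate 1 and 33 in replicate 4, against 22 in replicate 2 and 25 in replicate 3. With the scramble pair alone as the scale, over the 33 members whose gap there was at least 1, these medians were 0.69, 0.26, 0.31 and 0.60.

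**Figure D4:**
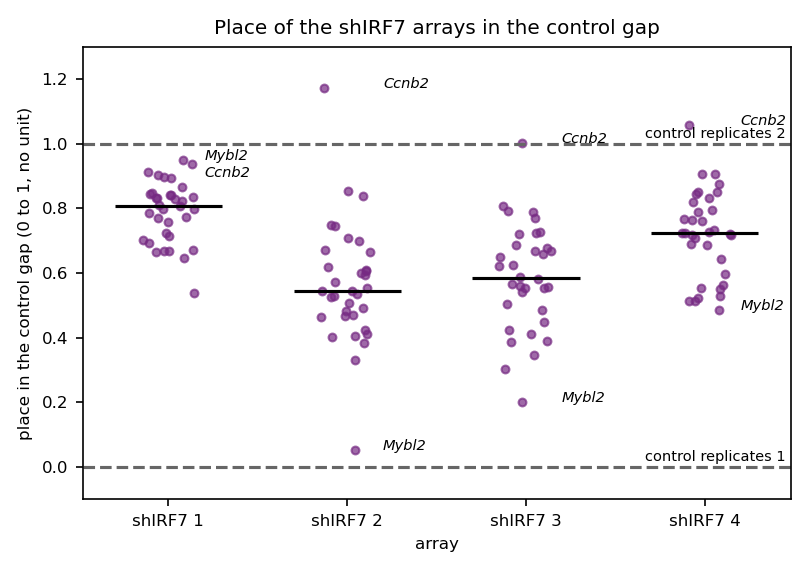
Place of each of the 34 genes (points) in the gap between the mean of control replicates 1 (0) and of control replicates 2 (1), on each shIRF7 array, with the median as a bar; the sideways spread of points has no meaning. Medians lie between 0.54 and 0.81, with Ccnb2 at the top of replicates 2, 3 and 4 and Mybl2 at the bottom of the same arrays.

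Among cyclins, Cdk1 and the kinases of mitotic entry, 7 genes were measured, and their median gap between control replicates 2 and 1 was 3.17. Ccna2, cyclin A2, measured 13.29, 12.33, 12.18 and 12.74 in shIRF7 replicates 1 to 4, against 14.17 and 14.13 in scramble and empty vector replicate 2 and 11.73 and 8.63 in scramble and empty vector replicate 1. Cdk1, the kinase that mitotic cyclins activate, measured 12.60, 11.70, 11.47 and 12.35 in shIRF7 replicates 1 to 4, against 13.32 and 13.24 in scramble and empty vector replicate 2 and 11.29 and 9.35 in scramble and empty vector replicate 1. In both genes the 4 shIRF7 arrays stood apart from both pairs of controls without overlap. Aurkb, the kinase of the chromosomal passenger complex, measured 11.87, 11.05, 11.10 and 11.57 in shIRF7 replicates 1 to 4, against 13.27 and 13.26 in scramble and empty vector replicate 2 and 10.44 and 7.69 in scramble and empty vector replicate 1. Its gap was 4.20 (SE 0.43, adjusted p = 1.31e-05) as measured, and 4.02 with empty vector replicate 1, which was below the detection limit, raised to it. Cdc25c, a phosphatase that activates Cdk1, measured 8.77, 8.74, 8.76 and 9.27 in shIRF7 replicates 1 to 4, against 10.03 and 10.16 in scramble and empty vector replicate 2 and 7.12 and 5.0 in scramble and empty vector replicate 1. Both control replicate 1 values lay below the detection limit, and with them at the limit Cdc25c was at least 3.85-fold higher in control replicates 2. Aurka, the centrosomal Aurora kinase, measured 11.07, 9.71, 9.86 and 10.78 in shIRF7 replicates 1 to 4, against 11.41 and 11.13 in scramble and empty vector replicate 2 and 9.19 and 7.02 in scramble and empty vector replicate 1. Plk1, the polo kinase of spindle assembly, measured 14.34, 13.20, 13.40 and 14.19 in shIRF7 replicates 1 to 4, against 15.09 and 14.75 in scramble and empty vector replicate 2 and 13.29 and 11.40 in scramble and empty vector replicate 1. Its gap was 2.58 (SE 0.32, adjusted p = 4.86e-05), and scramble replicate 1 slightly exceeded shIRF7 replicate 2. Ccnb2, cyclin B2, departed from this order. It measured 13.29, 14.02, 13.57 and 13.72 in shIRF7 replicates 1 to 4, against 13.43 and 13.69 in scramble and empty vector replicate 2 and 11.49 and 10.31 in scramble and empty vector replicate 1. In 3 shIRF7 arrays it lay above scramble replicate 2, and its shIRF7-minus-control difference, 1.42 (SE 0.72, adjusted p = 0.69), was the largest of the members on all 8 arrays. It was 0.57 without empty vector replicate 1 and 2.26 without empty vector replicate 2, where Hmmr (2.50) exceeded it.

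The 6 genes of the spindle checkpoint and the anaphase-promoting complex had a median gap of 3.31. Cdc20, the activator of the complex that the checkpoint restrains, measured 10.51, 10.25, 10.43 and 10.59 in shIRF7 replicates 1 to 4, against 11.96 and 11.81 in scramble and empty vector replicate 2 and 9.26 and 6.21 in scramble and empty vector replicate 1. Its measured gap was 4.15, and 3.23 with the empty vector replicate 1 value at the detection limit; its SD over shIRF7 was 0.15 (n = 4). Ttk, the Mps1 kinase at unattached kinetochores, measured 10.68, 9.67, 10.09 and 10.42 in shIRF7 replicates 1 to 4, against 11.18 and 11.24 in scramble and empty vector replicate 2 and 9.14 and 6.52 in scramble and empty vector replicate 1. Bub1, a checkpoint kinase, measured 11.18, 10.59, 10.68 and 11.25 in shIRF7 replicates 1 to 4, against 12.03 and 12.34 in scramble and empty vector replicate 2 and 9.71 and 7.91 in scramble and empty vector replicate 1. Mad2l1, the checkpoint protein that binds Cdc20, measured 13.19, 11.75, 11.83 and 12.70 in shIRF7 replicates 1 to 4, against 13.52 and 13.73 in scramble and empty vector replicate 2 and 11.48 and 9.26 in scramble and empty vector replicate 1. In these 3 genes too, shIRF7 lay between the control pairs without overlap. Bub1b, the BubR1 checkpoint protein, measured 11.84, 11.95, 11.73 and 12.10 in shIRF7 replicates 1 to 4, against 12.49 and 12.20 in scramble and empty vector replicate 2 and 10.80 and 8.51 in scramble and empty vector replicate 1; its shIRF7-minus-control difference was 0.90 (SE 0.74, adjusted p = 0.841). Ube2c, the ubiquitin-conjugating enzyme of the complex, measured 13.65, 13.28, 13.20 and 13.74 in shIRF7 replicates 1 to 4, against 14.03 and 14.12 in scramble and empty vector replicate 2 and 12.24 and 10.46 in scramble and empty vector replicate 1. Bub1b and Ube2c, above the detection limit on all arrays, had gaps of 2.69 and 2.72, and in both genes every shIRF7 array lay nearer to control replicates 2 than to control replicates 1.

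Centromere, kinetochore and chromosomal passenger genes, 7 in all, had a median gap of 2.81. Ndc80, the microtubule-binding subunit of the outer kinetochore, measured 10.43, 10.27, 10.14 and 10.70 in shIRF7 replicates 1 to 4, against 11.62 and 11.69 in scramble and empty vector replicate 2 and 9.52 and 6.83 in scramble and empty vector replicate 1. Nuf2, its partner in the same complex, measured 13.39, 12.49, 12.84 and 13.22 in shIRF7 replicates 1 to 4, against 13.67 and 13.72 in scramble and empty vector replicate 2 and 11.61 and 9.50 in scramble and empty vector replicate 1. The 2 subunits had gaps of 3.47 and 3.14 (2.86 for Ndc80 with empty vector replicate 1 at the detection limit), and neither overlapped between shIRF7 and either pair. Cenpa, the histone H3 variant of centromeres, measured 12.34, 12.45, 12.36 and 12.62 in shIRF7 replicates 1 to 4, against 12.91 and 12.83 in scramble and empty vector replicate 2 and 11.05 and 9.43 in scramble and empty vector replicate 1. Its shIRF7 values varied least of the members, with an SD of 0.13 (n = 4), against 1.66 over the controls (n = 4). Birc5, or survivin, a passenger complex subunit, measured 11.03, 10.59, 10.64 and 11.14 in shIRF7 replicates 1 to 4, against 12.02 and 11.77 in scramble and empty vector replicate 2 and 9.82 and 8.35 in scramble and empty vector replicate 1. Incenp, the scaffold of that complex, measured 8.23, 7.20, 7.21 and 7.71 in shIRF7 replicates 1 to 4, against 9.13 and 9.02 in scramble and empty vector replicate 2 and 6.82 and 5.24 in scramble and empty vector replicate 1. It lay below the detection limit in both control replicates 1 and on 3 shIRF7 arrays, and with these control values at the limit it was at least 1.89-fold higher in control replicates 2. Birc5 and Incenp both kept shIRF7 between the control pairs without overlap. Cenpe, a kinetochore motor, measured 13.09, 12.27, 12.61 and 12.78 in shIRF7 replicates 1 to 4, against 13.35 and 13.60 in scramble and empty vector replicate 2 and 12.29 and 9.59 in scramble and empty vector replicate 1. Cenpf, a large kinetochore protein, measured 7.20, 6.90, 7.41 and 7.02 in shIRF7 replicates 1 to 4, against 7.63 and 7.89 in scramble and empty vector replicate 2 and 7.02 and 5.10 in scramble and empty vector replicate 1. Cenpf lay above the detection limit on 0 of the 8 arrays, so the size of its gap cannot be told. Its values as measured still enter the group's median and the ranges over members. In Cenpe scramble replicate 1 exceeded shIRF7 replicate 2.

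The 6 motors and spindle proteins had a median gap of 2.96. Hmmr, a spindle assembly protein, measured 11.82, 11.53, 11.41 and 11.93 in shIRF7 replicates 1 to 4, against 12.47 and 12.57 in scramble and empty vector replicate 2 and 10.03 and 7.09 in scramble and empty vector replicate 1. Kif11, the Eg5 motor that separates the spindle poles, measured 12.55, 12.02, 12.08 and 12.41 in shIRF7 replicates 1 to 4, against 13.11 and 13.09 in scramble and empty vector replicate 2 and 11.20 and 8.45 in scramble and empty vector replicate 1. Hmmr had a gap of 3.96, or 3.48 with empty vector replicate 1 at the detection limit, and in both genes the shIRF7 values lay between the control pairs. Tpx2, which activates Aurora A on the spindle, measured 12.32, 11.54, 11.55 and 12.13 in shIRF7 replicates 1 to 4, against 12.81 and 12.76 in scramble and empty vector replicate 2 and 11.10 and 8.87 in scramble and empty vector replicate 1. Nusap1, a microtubule-bundling protein, measured 11.95, 11.50, 11.85 and 11.96 in shIRF7 replicates 1 to 4, against 12.79 and 12.61 in scramble and empty vector replicate 2 and 10.65 and 8.59 in scramble and empty vector replicate 1. Kif2c, a microtubule-depolymerising kinesin, measured 11.43, 11.07, 11.11 and 11.38 in shIRF7 replicates 1 to 4, against 12.66 and 12.82 in scramble and empty vector replicate 2 and 10.98 and 8.83 in scramble and empty vector replicate 1. It was the lowest of the group relative to the controls, with a shIRF7-minus-control difference of -0.07 (SE 0.79, adjusted p = 0.989), and the only member besides Mybl2 below 0. Kif4, a chromosome-bound kinesin, measured 11.80, 10.89, 11.28 and 10.98 in shIRF7 replicates 1 to 4, against 12.37 and 12.30 in scramble and empty vector replicate 2 and 10.93 and 8.17 in scramble and empty vector replicate 1, and scramble replicate 1 exceeded shIRF7 replicate 2.

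Midzone and cytokinesis genes, 5 in all, had a median gap of 3.19. Ect2, the exchange factor that activates RhoA at the equator, measured 12.88, 12.34, 11.91 and 12.61 in shIRF7 replicates 1 to 4, against 13.34 and 13.17 in scramble and empty vector replicate 2 and 10.91 and 8.46 in scramble and empty vector replicate 1. Prc1, which bundles midzone microtubules, measured 10.48, 9.25, 9.50 and 10.07 in shIRF7 replicates 1 to 4, against 10.96 and 11.14 in scramble and empty vector replicate 2 and 8.67 and 6.70 in scramble and empty vector replicate 1. Both lay between the control pairs without overlap on all 4 shIRF7 arrays. Kif20a, a midzone kinesin, measured 13.26, 12.96, 13.23 and 13.35 in shIRF7 replicates 1 to 4, against 13.86 and 13.85 in scramble and empty vector replicate 2 and 11.91 and 9.83 in scramble and empty vector replicate 1. Kif23, the kinesin of centralspindlin, measured 12.42, 12.09, 12.08 and 12.43 in shIRF7 replicates 1 to 4, against 13.22 and 13.14 in scramble and empty vector replicate 2 and 11.59 and 9.40 in scramble and empty vector replicate 1. These 2 kinesins, above the detection limit on all arrays, had gaps of 2.98 and 2.68. Anln, the actin-binding anillin of the contractile ring, measured 11.00, 9.60, 9.28 and 9.94 in shIRF7 replicates 1 to 4, against 11.59 and 11.40 in scramble and empty vector replicate 2 and 9.63 and 6.99 in scramble and empty vector replicate 1. In Anln shIRF7 replicates 2 and 3 lay below scramble replicate 1, and replicates 1 and 4 above it.

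Top2a, the topoisomerase that untangles chromosomes, measured 11.09, 10.16, 10.04 and 10.43 in shIRF7 replicates 1 to 4, against 11.51 and 11.41 in scramble and empty vector replicate 2 and 10.08 and 8.49 in scramble and empty vector replicate 1. Mki67, the Ki-67 proliferation antigen, measured 14.51, 13.67, 13.69 and 13.62 in shIRF7 replicates 1 to 4, against 14.75 and 14.69 in scramble and empty vector replicate 2 and 13.71 and 10.83 in scramble and empty vector replicate 1. In Mki67 the scramble pair differed by 1.04 and the empty vector pair by 3.86, and shIRF7 replicates 2, 3 and 4 lay just below scramble replicate 1. Mybl2, or B-Myb, the only measured transcription factor of the list, measured 9.70, 6.33, 6.88 and 7.96 in shIRF7 replicates 1 to 4, against 10.08 and 9.70 in scramble and empty vector replicate 2 and 6.49 and 5.78 in scramble and empty vector replicate 1. Both control replicate 1 values and shIRF7 replicates 2, 3 and 4 lay below the detection limit, and with the control values at the limit it was at least 3.33-fold higher in control replicates 2. Of the shIRF7 arrays only replicate 1 was above the limit, at about the level of control replicates 2.

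**Figure D5:**
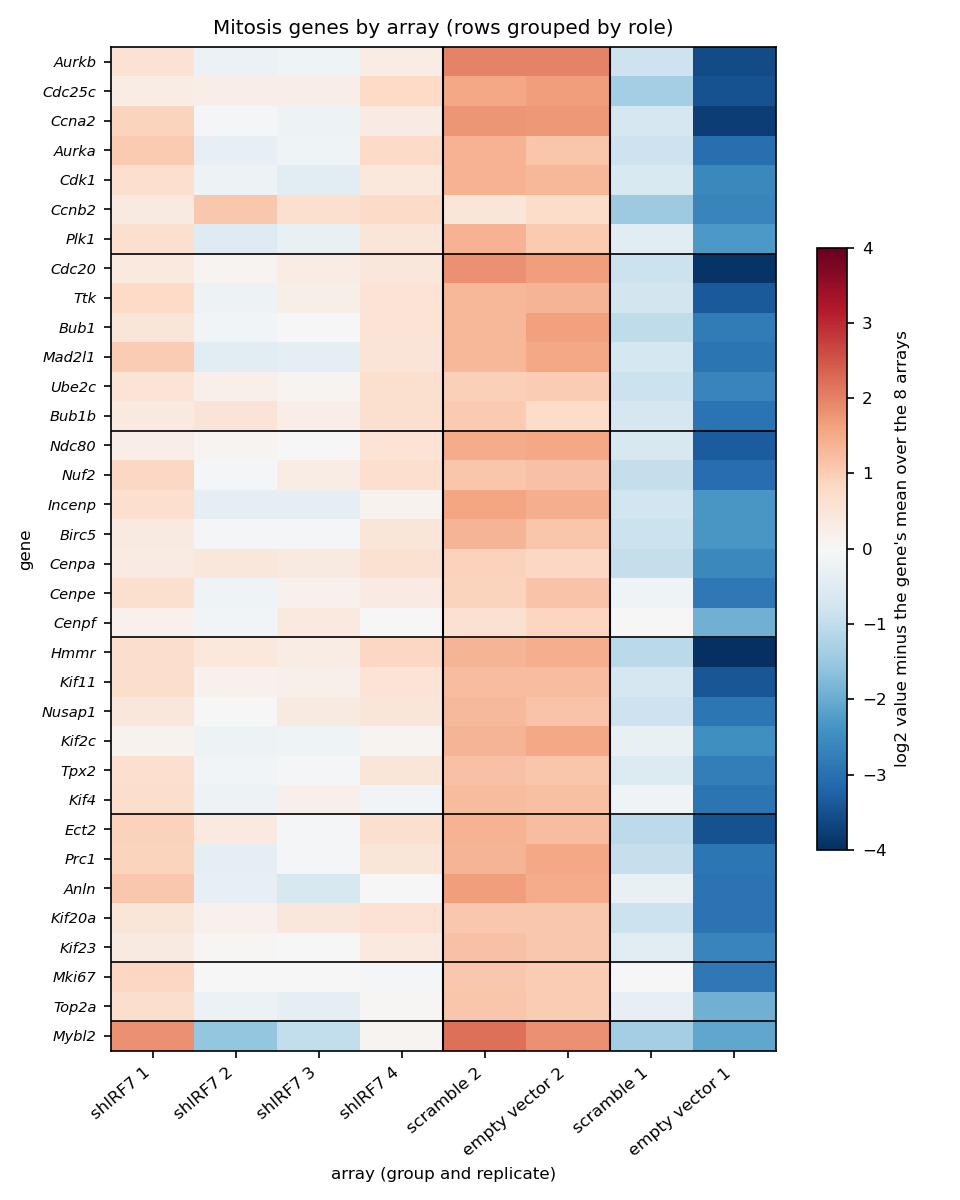
Log2 value of each of the 34 genes (rows, grouped by role) on each of the 8 arrays (columns) minus the gene's mean over the arrays; red is above and blue below that mean. Control replicates 2 are red and empty vector replicate 1 is the deepest blue in every row.

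The members followed each other closely from array to array. The Pearson correlation of a member with the mean profile of all members over the 8 arrays had a median of 0.99 and was over 0.9 in 32 of 34. The 2 others were Ccnb2 (0.86) and Mybl2 (0.82). A correlation over 0.95 was found in 31 members and in 282 of 18507 genes outside the list, predicted genes and Riken clones left out. The profiles share 8 arrays that are not known to be independent, and the mean holds each member itself, so these are descriptions. Within shIRF7, replicate 1 was the highest array for 20 members and replicate 4 for 12, and replicate 2 or 3 was the lowest for 31. Replicate 2 exceeded replicate 1 only in Ccnb2, Bub1b and Cenpa, so 31 of 34 members were lower in replicate 2 (49.4% of all genes), opposite to the control pairs. The 10 genes outside the list with the profile most like the mean were Nek2, Cenpi, Troap, Kif20b, Poc1a, Gpaa1, Smc4, Pbk, Kif18b and Racgap1, with correlations of 0.99 to 1.00. Of these Nek2, Cenpi, Troap, Smc4, Pbk, Kif18b and Racgap1 are in the list of other mitosis genes described next. The probe set of Gpaa1, which acts in attaching membrane anchors to proteins, differed by 2.09 between control replicates 2 and 1.

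Genes of the same pathway outside the list were read in the same fits. Of 74 other mitosis genes, 73 passed in limma as higher in control replicates 2 (10.3% of all genes) and 0 as lower (8.34%). Their median gap was 2.41. The exception was Cdc27, a core subunit of the anaphase-promoting complex, with 0.50 (SE 0.25, adjusted p = 0.211). In 22 of the 74 all 4 control values lay above the detection limit. The widest measured gaps were those of the spindle proteins Spag5 and Tacc3, which lay below the limit in both control replicates 1; with those values at the limit they were at least 5.54-fold and at least 2.64-fold higher in control replicates 2. All 33 S phase genes passed as higher (10.3% of all genes), with a median gap of 2.59. Measured gaps were widest for the replication factor Cdc45 (4.36) and the ribonucleotide reductase subunit Rrm2 (4.13). With empty vector replicate 1 at the limit the gap of Cdc45 was 3.04, and Cdc45 was no longer the widest. Rrm2 lay above the limit on all 4 control arrays. In 10 of the 33 all 4 control values lay above the limit. Both counts fell to 0 without borrowing of variances and with all 3 groups. Of 15 CDK inhibitors, G1 cyclins and related genes, 4 passed as higher (Cdkn2d, Ccnd3, Rbl1 and E2f4). In the same list 2 passed as lower (Cdkn2a and Rbl2), and the median gap was -0.12. These are 26.7% and 13.3% of the list, against 10.3% and 8.34% of all genes. Cdkn2d, the inhibitor p19Ink4d, was at least 3.42-fold higher in control replicates 2 with its control replicate 1 values, both below the limit, raised to it. Its adjusted p in limma, 2.36e-05, is for the values as measured, and the bound was not tested. Ccnd3, cyclin D3, differed by 1.16 (SE 0.25, adjusted p = 0.00404). Rbl1 and Rbl2, the pocket proteins p107 and p130, differed by 2.39 (2.08 with empty vector replicate 1 at the limit) and -1.83, and the transcription factor E2f4 by 1.68. Cdkn2a, the locus of p16 and p19Arf, lay below the limit on all 8 arrays, so no size is given. In shIRF7 against the controls 0 genes of these 3 lists passed (0.0308% of all genes), with medians of 0.30, -0.08 and 0.07. All 4 shIRF7 arrays lay below every control in 1 of 74 other mitosis genes, Zwint, in 0 of 33 S phase genes and in 1 of 15 of the last list, Rb1 (2.8% of all genes). Zwint differed by -0.98 (adjusted p = 0.299 in limma). Rb1 was above the detection limit on 1 shIRF7 array and on 0 of control replicates 2.

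Mitosis and S phase genes took different values within shIRF7. On the scale of the control gap the median place of the 32 S phase genes with a gap of at least 1 was 0.81, 0.26, 0.26 and 0.57 in shIRF7 replicates 1 to 4, beside 0.81, 0.54, 0.58 and 0.72 for the 34 members and 0.77, 0.55, 0.56 and 0.67 for 71 other mitosis genes. In replicates 2 and 3 the S phase genes therefore lay nearer to control replicates 1 than the mitosis genes did. In replicate 1 they lay at about the same place. The difference between the lists was not tested. The places use values as measured, also those below the detection limit. All 4 control values lay above it in 10 of 33 S phase genes, 21 of 34 members and 22 of 74 other mitosis genes. Whether dim values have a part in the difference was not tested. In 13 of 33 S phase genes all shIRF7 arrays lay inside the gap, and in 25 of 34 members (3.32% of all genes). Among all genes these were 648 of the 5197 with both control replicates 2 above both control replicates 1.

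Scramble and empty vector were also compared with each other. In limma 0 of 34 members passed (0% of all genes), and 0 had an unadjusted p under 0.05 (1.93% of all genes), with a median scramble-minus-empty difference of 1.11 and the medians of 0.04 in replicate 2 and 2.16 in replicate 1 given above.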

How the data were processed

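Total RNA of the cells behind 8 arrays was hybridised to Affymetrix mouse arrays. The authors deposited log2 values, 1 per probe set and array. The submitters' processing notes name RMA and Affymetrix Expression Console 1.4.1.46. Values ran from 1.66 to 18.9. The platform annotation gave a single symbol to 19572 of 28846 probe sets; where a gene had several (55 genes) the brightest on average was used, which left 19505 genes. The probe sets' genome build is not given in the labels. limma 3.58.1 (R 4.3.3; lmFit, eBayes) gave shIRF7 minus the mean of both controls and scramble minus empty vector over 8 arrays, and replicate 2 minus replicate 1 over the 4 control arrays with the vector as a covariate. P-values were adjusted over all genes by Benjamini-Hochberg. The fits were tested on simulated data. Precision is limited by the number of arrays. The members and all lists were chosen with earlier results of these data known, so no count over them is independent support.

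Values on every array were to be given for the widest and narrowest gaps of each role group, for members past the threshold in a comparison, which took in all 34 measured members, and for Irf7. Named besides were the 10 genes most correlated with the members' mean (predicted genes and Riken clones left out), and in each other list the genes past the threshold and the 2 with the widest gap; of the long lists only the widest and the exceptions are printed. Alternatives were a filter on dim genes, trend and robust variances, cyclic loess, averaged probe sets, pooled controls, the replicate block and leaving out each array, and raising dim values to the detection limit.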

Additional observations from a re-analysis of the deposited data

Results flagged for a closer look

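Among the 4 shIRF7 arrays 2 members had a value far from the other 3 by Dixon's criterion, which chance meets in about 1 of 20 groups. Cdc25c measured 9.27 in shIRF7 replicate 4, against 8.74 to 8.77 in the others. Mki67 measured 14.51 in shIRF7 replicate 1, against 13.62 to 13.69 in the others. The shIRF7-minus-control difference also had opposite signs within the replicate numbers, with a median over members of 2.36 within replicate 1 and -1.33 within replicate 2. That difference between the numbers was not tested, since each holds 1 shIRF7 array.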

How the results depend on the processing

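The gap between control replicates kept its direction for the members' median under every alternative run, at 1.78 to 4.02, but its call did not: 34 members passed in limma, 15 with trend and robust estimation, 0 without moderation of the variances and 0 with replicates 1 and 2 of all 3 groups, and under both of the last, 0 other mitosis, 0 S phase and 0 CDK inhibitor or G1 genes passed as well. The last of these lists changed the sign of its median gap with the filter on dim genes (0.31), and ran from -0.19 to 0.083 with 1 vector pair. For shIRF7 minus controls 0 members passed under every alternative, and the members' median ran from -0.52 to 1.60 without single arrays, that of other mitosis genes from -0.52 to 1.06, that of S phase genes from -0.96 to 0.75 (0.10 with the replicate block) and that of CDK inhibitors and G1 cyclins from -0.12 to 0.18. Single members moved with the same arrays: 30 changed sign when the first empty vector array was left out and 14 when the first scramble array was. Leaving out each array in turn gave shIRF7-minus-control differences of -0.90 to 1.85 for Ccna2, 0.57 to 2.26 for Ccnb2, -0.74 to 1.20 for Cdk1, -0.69 to 0.99 for Plk1, -0.36 to 1.69 for Aurka, -1.16 to 1.62 for Aurkb, -0.68 to 1.54 for Bub1, -0.017 to 1.83 for Bub1b and -0.75 to 1.49 for Mad2l1. The same range was -0.49 to 1.88 for Ttk, -0.76 to 2.03 for Cdc20, -0.48 to 2.10 for Cdc25c, -0.36 to 1.96 for Kif11, -0.17 to 1.84 for Kif20a, -0.52 to 1.35 for Kif23, -1.07 to 0.92 for Kif2c, -0.74 to 1.33 for Kif4 and 0.039 to 1.74 for Cenpa. It ran from -0.52 to 1.48 for Cenpe, -0.48 to 0.91 for Cenpf, -0.74 to 1.68 for Ndc80, -0.19 to 1.92 for Nuf2, -0.49 to 1.22 for Birc5, -0.67 to 0.79 for Top2a, -0.59 to 1.34 for Mki67, -0.47 to 1.47 for Tpx2 and -0.24 to 2.50 for Hmmr. The ranges were -1.05 to 1.16 for Anln, -0.65 to 1.57 for Prc1, -0.35 to 1.66 for Nusap1, -0.16 to 1.66 for Ube2c, -1.27 to 0.69 for Mybl2, -0.21 to 2.15 for Ect2 and -0.91 to 0.98 for Incenp. With the replicate block Mybl2 turned from below 0 to 0.0036, without a call in either fit. Same-numbered arrays deviated together in the controls (correlation 0.757 over all genes) but not with shIRF7 (-0.31 to -0.161). The main fit of shIRF7 against the controls therefore did not pair arrays by number. The gap between control replicates, the replicate block and the differences within a replicate number do use the numbers. The place in the gap ran from 0.69 to 0.87, 0.26 to 0.67, 0.31 to 0.72 and 0.60 to 0.80 in shIRF7 replicates 1 to 4 when 1 vector pair set the scale. Over all genes shIRF7 minus controls gave 6 calls, against 3 with trend and robust estimation, 2 after cyclic loess, 28 with both controls as 1 group and 0 with the block. The cause was not tested. The alternatives for the lists, for the place in the gap, for scramble minus empty vector, without moderation and with dim values at the detection limit were chosen after seeing the data.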
